A study of Mus musculus with 26 samples.

Results

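The proteasome subunit genes were taken as all genes whose symbol is Psma, Psmb, Psmc, Psmd or Psme followed by a number, which gave 42 of the 22180 genes on the array. They hold 7 genes of the core alpha ring, 7 standard genes of the core beta ring, 4 immunoproteasome and thymus beta genes, 6 ATPase genes, 14 non-ATPase genes of the regulatory particle and 4 activator genes. Of the 42, 40 were bright enough to be tested. The transcripts were measured in J1 mouse embryonic stem cells on Affymetrix Mouse Gene 2.0 ST arrays, 1 array per sample. The series concerns Mettl3 and Mettl14, whose products form the enzyme that writes N6-methyladenosine (m6A) on messenger RNA, and how that mark relates to transcript stability.

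All cells were J1 cells kept in serum with leukaemia inhibitory factor on a layer of irradiated mouse embryonic fibroblasts, a feeder layer from which RNA can remain in a bulk sample. The time course had 9 groups of 2 arrays, made up of scramble control cells (treatment label Wild type) and cells with Mettl14 or Mettl3 knocked down, harvested at 0 h, 4 h or 8 h. The repeat set had 4 groups of 2 arrays at 0 h: each knockdown and a scramble control of its own. Both lentiviral hairpin RNA with puromycin selection and transfected siRNA appear in the labels, without a link to single arrays. They name no agent for the 4 h and 8 h incubations other than the scramble or hairpin RNA itself. In the repeat set, replicate 2 of each scramble control was grouped as 0 h after its title, source and time label, although its description reads 4 h. With 2 arrays a group, precision is limited.

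The proteasome is the main ATP-driven protease of the cytosol and nucleus, and it degrades proteins tagged with ubiquitin. Its barrel-shaped core has outer rings of alpha subunits and inner rings of beta subunits, of which Psmb5, Psmb6 and Psmb7 encode the catalytic ones. A regulatory particle of ATPases (Psmc genes) and non-ATPases (Psmd genes) recognises, unfolds and feeds in the substrate, and the Psme genes encode activators that dock on the core without ATP. Interferon brings in Psmb8, Psmb9 and Psmb10 in place of the standard catalytic subunits, which forms the immunoproteasome that makes peptides for antigen presentation. Embryonic stem cells are known for high proteasome activity.

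Both knockdowns were visible in their targets. Mettl14 log2 signal changed by -1.70 ± 0.13 (± is limma's standard error throughout) where Mettl14 was knocked down in the time course at 0 h, or 30.9% of scramble, and by -1.36 ± 0.10 or 39% of scramble among the repeat arrays (limma with Benjamini-Hochberg adjustment, adjusted p = 9.59e-07 and 0.000158). The probe set listed for Mettl3, which is also listed for Tox4, had 26.89% and 23.61% of the control signal in the Mettl3 knockdown of the 2 sets. Replicates correlated at r = 0.9938 to 0.9975 across genes. Of 10 embryonic stem cell markers, 9 were bright enough to be tested and Dppa5a was dim. The summed linear signal of the 10 was 35494 to 35541 in scramble and 27208 to 28151 in the knockdowns at 0 h of the time course. Of the 9, 6 fell and 0 rose with the Mettl14 knockdown there, and 7 fell and 1 rose with the Mettl3 knockdown. Among all genes 20.1% were lower and 19.4% higher with Mettl14, and 18.6% and 19.3% with Mettl3. In the repeat set 8 fell and 0 rose with Mettl14 (16.9% and 19.4% of all genes), and 7 fell and 1 rose with Mettl3 (17.4% and 17.9%).

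Among the members, 2 were too dim to be tested. Psma5, an alpha-ring gene, ran from 4.66 to 6.42 over the 26 arrays. Psmb11, the thymus-specific counterpart of Psmb5, ran from 5.29 to 5.89. Psma4, the remaining alpha-ring gene, has only probe sets that are also listed for another gene, so it is no member. The deposited log2 signals of the members covered 4.66 to 13.06 over all arrays. The largest gap between the 2 replicates of a group had a median of 0.15 over the 42 members and a maximum of 0.72. Psme2 has a near-identical copy, so its values are uncertain.

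Promoter windows from RefSeq (GRCm38.p6, 250 bases before to 50 after a start) were at hand for 35 members, 38 windows in all. Windows of 4 genes are shown because the results below turn on them: Psmb5 (chr14:54617946-54618245, minus strand), a standard catalytic subunit; Psmb8 (chr17:34197945-34198244, plus strand), its interferon-inducible counterpart; Psme1 (chr14:55578244-55578543, plus strand), an activator subunit that interferon also induces; and Psmc2 (chr5:21785025-21785324, plus strand, the first of its 2 windows), an ATPase. They read 5′ to 3′ along the gene's strand. Capitals mark matches, on either strand, to TGACNNNGC (the core of the antioxidant response element) in Psmb5, TTCNNNGAA (the gamma-activated site) in Psmb8, GAAANNGAAA (the interferon-stimulated response element) in Psme1 and CCAAT (the CCAAT box) in Psmc2; no match printed overlaps another.

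Psmb5: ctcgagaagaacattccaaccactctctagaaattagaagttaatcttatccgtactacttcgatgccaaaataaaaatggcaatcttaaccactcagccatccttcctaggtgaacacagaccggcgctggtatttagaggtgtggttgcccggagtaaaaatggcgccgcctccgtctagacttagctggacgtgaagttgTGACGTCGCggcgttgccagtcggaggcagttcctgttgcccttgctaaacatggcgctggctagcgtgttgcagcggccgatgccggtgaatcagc
Psmb8: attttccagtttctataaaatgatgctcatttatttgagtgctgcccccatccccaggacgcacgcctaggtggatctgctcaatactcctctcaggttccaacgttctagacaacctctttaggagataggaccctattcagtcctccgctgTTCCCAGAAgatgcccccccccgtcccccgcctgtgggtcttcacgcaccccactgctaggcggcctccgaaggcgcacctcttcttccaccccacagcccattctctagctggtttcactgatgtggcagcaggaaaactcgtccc
Psme1: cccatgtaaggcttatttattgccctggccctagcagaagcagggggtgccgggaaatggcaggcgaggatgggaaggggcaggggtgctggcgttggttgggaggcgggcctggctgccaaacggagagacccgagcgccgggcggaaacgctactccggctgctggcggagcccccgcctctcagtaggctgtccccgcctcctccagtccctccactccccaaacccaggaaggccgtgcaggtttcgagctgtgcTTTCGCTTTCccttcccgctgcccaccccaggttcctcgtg
Psmc2: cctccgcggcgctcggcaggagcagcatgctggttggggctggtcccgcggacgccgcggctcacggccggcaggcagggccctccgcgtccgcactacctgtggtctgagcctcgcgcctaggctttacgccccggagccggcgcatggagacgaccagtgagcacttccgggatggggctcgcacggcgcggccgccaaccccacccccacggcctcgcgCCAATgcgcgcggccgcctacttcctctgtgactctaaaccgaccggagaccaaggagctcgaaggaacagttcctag

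The match in Psmb5 begins 47 bases before the start, that in Psmb8 97 before, that in Psmc2 28 before, and that in Psme1 lies 9 bases past the start. Among the 38 member windows, 6 held TGACNNNGC (15.8%), against 12.4% of all 32851 windows. GAAANNGAAA stood in 4 member windows (10.5%), those of Psmd4, Psmd9, Psmb3 and Psme1, against 3.44% of all. TTCNNNGAA stood in 2 (5.26%), those of Psmd2 and Psmb8, against 8.3%, and CCAAT in 14 (36.8%), against 37.4%. A match describes letters only; none is shown here to be bound.

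With the Mettl14 knockdown at 0 h of the time course, 12 of the 40 tested members fell and 4 rose. Those that fell were 3 of 6 alpha-ring genes, 2 of 7 standard beta genes, 4 of 6 ATPase genes and 3 of 14 non-ATPase genes. Those that rose were the immunoproteasome genes Psmb8 and Psmb10, the non-ATPase gene Psmd7 and the activator gene Psme4. Of all 14787 genes tested, 20.1% were called lower and 19.4% higher. The median log2 change was -0.11 over the members and 0.00 over all genes, and 26 of the 40 members lay below that of all genes.

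Psma8, the germline counterpart of Psma7, had log2 signals of 8.29 and 8.41 on the scramble arrays and 7.70 and 7.71 on the Mettl14 knockdown arrays. Both knockdown arrays were below both controls, a change of -0.65 ± 0.12 (limma, adjusted p = 0.00106). Psmd5, a chaperone that assembles the base of the regulatory particle and leaves it, had 11.26 and 11.31 in scramble and 10.97 on both knockdown arrays, a fall of 0.31 ± 0.05 on the log2 scale (adjusted p = 0.000255). Psmc2, an ATPase of the ring that unfolds substrates, had 10.80 and 10.68 in scramble and 10.53 and 10.36 in the knockdown. The groups did not overlap for it either, and the change was -0.30 ± 0.07 (adjusted p = 0.00323). Psmb3, a structural subunit of the beta ring, had 8.40 and 8.31 against 8.13 and 8.01, a change of -0.29 ± 0.07 (adjusted p = 0.00879).

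All of the 6 ATPase genes lay below 0 on the deposited scale, and Psmc1, Psmc2, Psmc5 and Psmc6 passed; the median of the 6 was -0.19. With an equal median of ribosomal protein genes, an alternative scale described below, Psmc2 stood at 0.00 and Psmc5 at 0.07. The 3 standard catalytic genes did not pass. Psmb5, which encodes the chymotrypsin-like site, changed by -0.12 ± 0.05 (limma, adjusted p = 0.053), Psmb6, the caspase-like one, by -0.11 ± 0.07 (adjusted p = 0.217) and Psmb7, the trypsin-like one, by -0.07 ± 0.06 (adjusted p = 0.449). Neither did the ubiquitin receptor gene Psmd4, at -0.11 ± 0.05 (adjusted p = 0.13), or Psmd14, the deubiquitinase of the lid, at 0.01 ± 0.06 (adjusted p = 0.954).

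Psmb8, which replaces Psmb5 in the immunoproteasome, stood at 6.64 and 6.67 in scramble and 7.06 and 7.17 in the Mettl14 knockdown. Every knockdown array was above every control, and the gene rose by 0.46 ± 0.12 (limma, adjusted p = 0.00991). Psmb10, the counterpart of Psmb7, had 9.47 and 9.39 against 9.59 and 9.63, a rise of 0.18 ± 0.05 (adjusted p = 0.0186). Psmb9, the counterpart of Psmb6, changed by 0.06 ± 0.08 (adjusted p = 0.636). Psmd7, the partner of Psmd14 in the lid, had 12.54 and 12.59 in scramble and 12.72 and 12.77 in the knockdown, a rise of 0.18 ± 0.05 (adjusted p = 0.0178).

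Of the 4 activator genes, 1 passed in the Mettl14 knockdown. Psme4, which encodes the large activator PA200, rose by 0.15 ± 0.04 (limma, adjusted p = 0.015). Psme1 and Psme2, whose products form the interferon-induced PA28 ring, changed by 0.10 ± 0.09 (adjusted p = 0.426) and 0.37 ± 0.15 (adjusted p = 0.0741). Psme3, the nuclear member of that family, changed by 0.03 ± 0.06 (adjusted p = 0.688).

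The calls of this comparison rest on few arrays. Without a scramble array at 0 h, 5 (replicate 1) or 6 (replicate 2) members were called lower, and 2 higher in either case; without replicate 2 of the Mettl14 knockdown, 5 were lower and 1 higher. In an alternative, arrays were scaled to an equal median level of 57 ribosomal protein genes in place of the deposited scale. The own median change of these genes as deposited was -0.05, while this scale added 0.30 to every gene. Values on it are therefore not changes against the ribosomal genes. The member median turned to 0.19 on this scale and that of all genes to 0.30. There 19 members were called higher and 1 lower, and 8025 of all 14787 genes were higher and 646 lower. This scale moves all genes of an array by 1 amount, so the gap of -0.11 to all genes cannot change with it. With quantile normalization applied again the gap was -0.06.

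With the Mettl3 knockdown of the time course at 0 h, 6 members fell and 2 rose. The 6 were Psma2, Psma7 and Psma8 of the alpha ring, the ATPase genes Psmc2 and Psmc5, and Psmd5; the 2 were the activator genes Psme1 and Psme4. Among all genes, 18.6% were called lower and 19.3% higher. The members' median was -0.05 and that of all genes 0.00. This comparison shares the scramble arrays with the one on Mettl14.

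Psma8 had 7.34 and 7.5 on the Mettl3 knockdown arrays, below both scramble arrays (8.29 and 8.41), a change of -0.93 ± 0.12 (limma, adjusted p = 7.41e-05). Psmd5 had 10.96 and 11.04 and changed by -0.28 ± 0.05 (adjusted p = 0.000557). Psmc5, an ATPase, had 9.95 and 9.89 in scramble and 9.54 and 9.78 in the knockdown, a change of -0.26 ± 0.08 (adjusted p = 0.0164). For none of the 3 did the groups overlap.

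Psme1 rose from 9.16 and 9.10 in scramble to 9.51 and 9.56 in the Mettl3 knockdown, by 0.40 ± 0.09 (limma, adjusted p = 0.00307), again without overlap. Psme4 had 11.54 and 11.50 against 11.76 and 11.74, a rise of 0.22 ± 0.04 (adjusted p = 0.00151). Psme2 changed by 0.29 ± 0.15 (adjusted p = 0.158) and Psme3 by 0.01 ± 0.06 (adjusted p = 0.946). The immunoproteasome genes did not pass: Psmb8 was at 6.95 and 6.49, on both sides of the controls, with a change of 0.06 ± 0.12 (adjusted p = 0.73), Psmb9 changed by 0.01 ± 0.08 (adjusted p = 0.948) and Psmb10 by -0.02 ± 0.05 (adjusted p = 0.767).

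The standard catalytic genes, Psmd4 and Psmd14 did not pass in the Mettl3 knockdown either. Psmb5 changed by -0.02 ± 0.05 (limma, adjusted p = 0.781), Psmb6 by -0.11 ± 0.07 (adjusted p = 0.234) and Psmb7 by -0.04 ± 0.06 (adjusted p = 0.68). Psmd4 changed by -0.06 ± 0.05 (adjusted p = 0.421) and Psmd14 by -0.05 ± 0.06 (adjusted p = 0.538). The count of 6 lower members was 2 if replicate 1 of the 0 h scramble arrays, or replicate 1 of the Mettl3 knockdown arrays, was left out. With an equal ribosomal median the member median turned to 0.06, with 2 members called higher and 1 lower, against 0.12 for all genes. On that scale 3701 of all 14787 genes were called higher and 1203 lower.

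**Figure D1:**
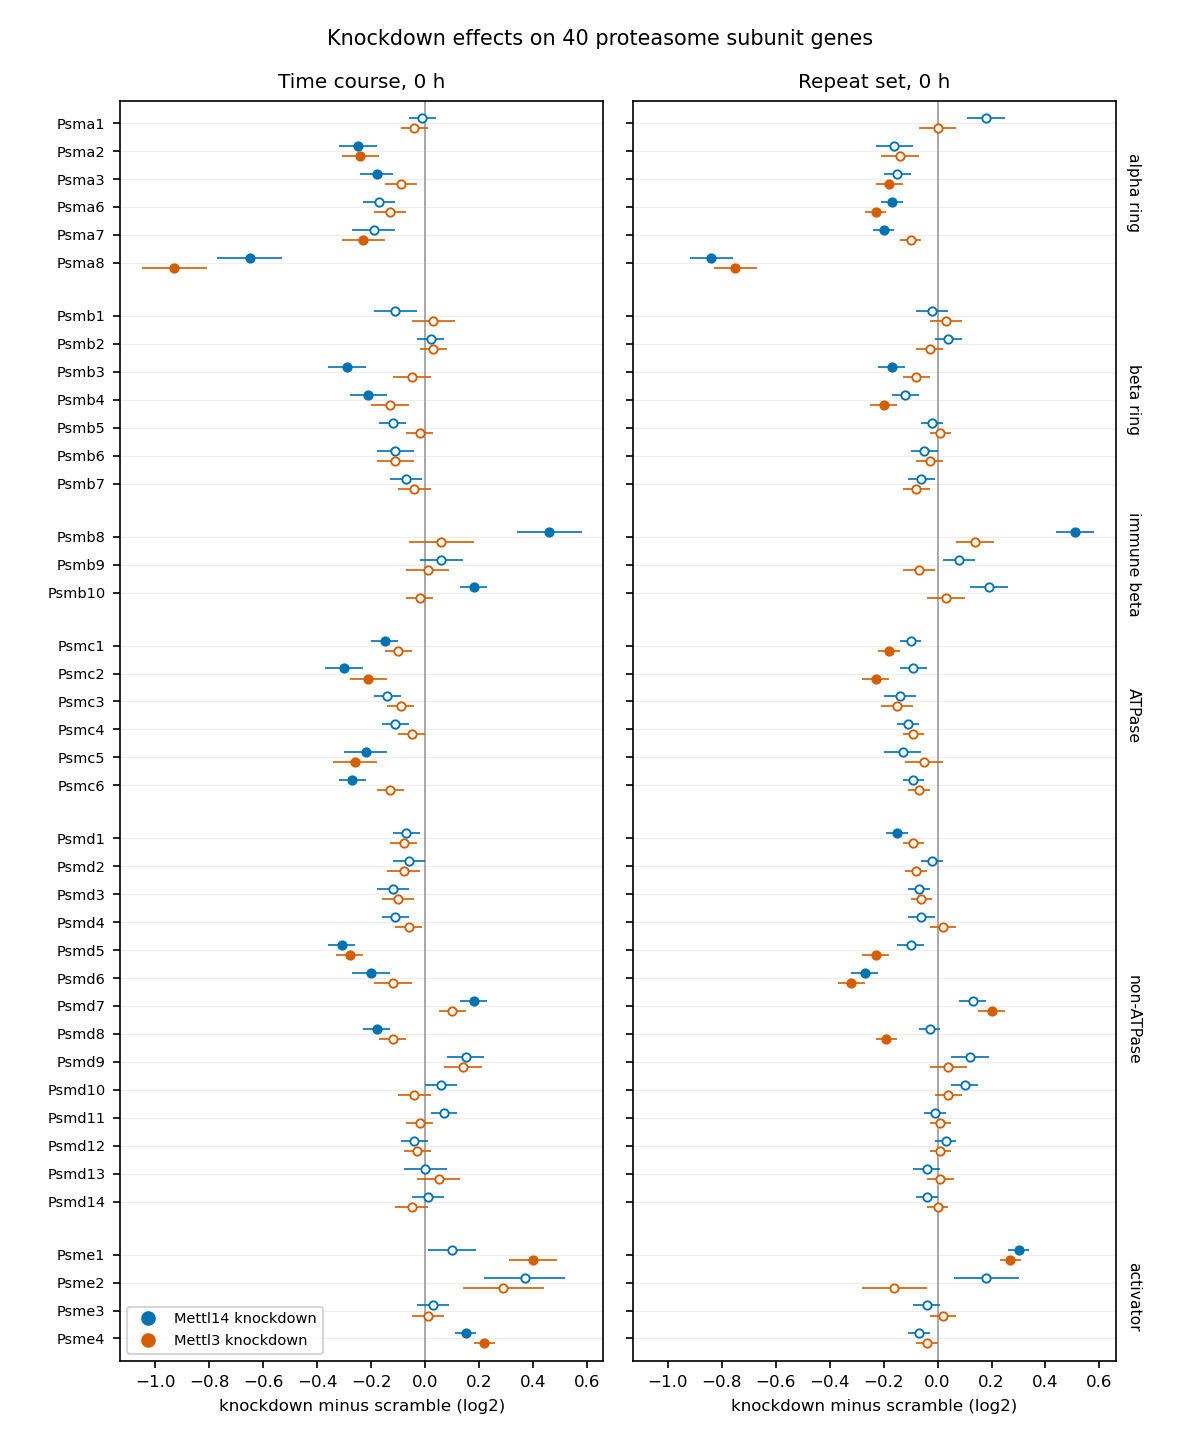
Log2 difference between knockdown and scramble at 0 h for each of the 40 tested members (rows, by sub-complex) in the time course and the repeat set; points are limma estimates from 2 arrays a group, bars are standard errors, filled points passed adjusted p 0.05, blue is Mettl14 knockdown and orange Mettl3 knockdown. Psma8 lies farthest to the left in both sets and all ATPase points lie below 0 on the deposited scale, where an equal ribosomal median would move every point of a comparison by 1 amount, to a member median above 0.

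In the repeat set, with its own controls, 6 members fell and 2 rose with the Mettl14 knockdown. The 6 were Psma6, Psma7 and Psma8, Psmb3, and the non-ATPase genes Psmd1 and Psmd6; the 2 were Psmb8 and Psme1. Among all genes 16.9% were called lower and 19.4% higher, and the member median was -0.05 against 0.00 for all genes. With the Mettl3 knockdown, 9 members fell (Psma3, Psma6, Psma8, Psmb4, Psmc1, Psmc2, Psmd5, Psmd6 and Psmd8) and 2 rose (Psme1 and Psmd7), against 17.4% and 17.9% of all genes. Its member median was -0.06 and that of all genes 0.00.

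Psma8 had 7.88 and 7.96 in the scramble control for Mettl14 and 7.01 and 7.15 in the knockdown, a change of -0.84 ± 0.08 (limma, adjusted p = 0.000439). It had 7.96 and 7.89 in the control for Mettl3 and 7.06 and 7.28 in that knockdown, a change of -0.75 ± 0.08 (adjusted p = 0.0008). All of the 4 knockdown arrays were below all of the 4 controls, as in the time course.

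Psmd6, a scaffold subunit of the lid, had 10.67 and 10.81 against 10.49 and 10.45 for Mettl14, a change of -0.27 ± 0.05 (limma, adjusted p = 0.00799). For Mettl3 it had 10.68 and 10.65 against 10.34 and 10.35, a change of -0.32 ± 0.05 (adjusted p = 0.00411). Neither pair of groups overlapped. Psmb3 changed by -0.17 ± 0.05 with Mettl14 (adjusted p = 0.044) and by -0.08 ± 0.05 with Mettl3 (adjusted p = 0.29). Psmb4, another structural beta-ring gene, changed by -0.20 ± 0.05 with Mettl3 (adjusted p = 0.0206), and Psmc2 by -0.23 ± 0.05 (adjusted p = 0.0137). With Mettl14, Psmc2 changed by -0.09 ± 0.05 (adjusted p = 0.219). All 6 ATPase genes lay below 0 with either knockdown on the deposited scale; an equal ribosomal median adds 0.09 to each value for Mettl14 and 0.08 for Mettl3.

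Psmb8 had 6.35 and 6.54 in its control and 6.93 and 6.98 in the Mettl14 knockdown, a rise of 0.51 ± 0.07 (limma, adjusted p = 0.00135) with no overlap. With Mettl3 it had 6.36 and 6.34 against 6.47 and 6.51, a change of 0.14 ± 0.07 (adjusted p = 0.147). Psmb10 changed by 0.19 ± 0.07 with Mettl14 (adjusted p = 0.0585) and by 0.03 ± 0.07 with Mettl3 (adjusted p = 0.798). Psmb9 changed by 0.08 ± 0.06 (adjusted p = 0.376) and -0.07 ± 0.06 (adjusted p = 0.453).

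Psme1 rose with both knockdowns of the repeat set. It had 9.10 on both control arrays and 9.41 and 9.39 with Mettl14, a rise of 0.30 ± 0.04 (limma, adjusted p = 0.00172). It had 8.91 and 8.96 against 9.23 and 9.19 with Mettl3, a rise of 0.27 ± 0.04 (adjusted p = 0.00281). Psme2 changed by 0.18 ± 0.12 (adjusted p = 0.271) and -0.16 ± 0.12 (adjusted p = 0.342), Psme3 by -0.04 ± 0.05 (adjusted p = 0.601) and 0.02 ± 0.05 (adjusted p = 0.799), and Psme4 by -0.07 ± 0.04 (adjusted p = 0.217) and -0.04 ± 0.04 (adjusted p = 0.465).

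Psmd7 had 11.99 and 12.03 in the Mettl3 control and 12.22 and 12.20 in the knockdown, a rise of 0.20 ± 0.05 (limma, adjusted p = 0.0146), and changed by 0.13 ± 0.05 with Mettl14 (adjusted p = 0.0651). The catalytic genes did not pass: with Mettl14 and Mettl3 in turn, Psmb5 changed by -0.02 and 0.01 (adjusted p = 0.74 and 0.907), Psmb6 by -0.05 and -0.03 (adjusted p = 0.421 and 0.702) and Psmb7 by -0.06 and -0.08 (adjusted p = 0.395 and 0.27). Psmd4 changed by -0.06 and 0.02 (adjusted p = 0.427 and 0.821) and Psmd14 by -0.04 and 0.00 (adjusted p = 0.493 and 0.963).

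The repeat calls also moved with single arrays. For Mettl14, the 6 lower members were 3 without replicate 2 of its scramble control and 2 without replicate 1 of the knockdown. For Mettl3, the 9 were 5, 5, 5 and 4 without control replicates 1 and 2 and knockdown replicates 1 and 2, and the 2 higher ones became 1 without replicate 1 of either group. With an equal ribosomal median the member medians turned to 0.04 for Mettl14 and 0.02 for Mettl3, against 0.09 for all genes in each. There 1 member was lower in each, and 2 and 1 were higher. Of all 14787 genes, 859 and 915 were lower on that scale and 2827 and 2505 higher.

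The sets have separate arrays, so their calls can be set side by side. The overlap was not counted over all genes, so whether its size is particular to the members cannot be told. For Mettl14, Psma8, Psmb3 and Psmd6 were called lower in both sets, which is 25% of the 12 and 50% of the 6, and Psmb8 was called higher in both, 25% of 4 and 50% of 2. For Mettl3, Psma8, Psmc2 and Psmd5 were lower in both (50% of 6 and 33.3% of 9), and Psme1 was higher in both (50% of 2 and of 2). Several of these shared calls rest on single arrays. For Mettl3, the call of Psmc2 was lost without any 1 of the 4 repeat arrays and without replicate 1 of either group in the time course, and that of Psmd5 without either repeat control or replicate 2 of the repeat knockdown. For Mettl14, the time course calls of Psmb3 and Psmb8 were lost without replicate 1 of scramble or replicate 2 of the knockdown, and that of Psmd6 without these or replicate 2 of scramble. The repeat call of Psmb3 was lost without either control or replicate 1 of the knockdown. The calls of Psma8 in both sets, with either knockdown, and those of Psme1 with Mettl3 stood without any 1 array. Within the repeat set, where each knockdown has its own control, Psma6, Psma8 and Psmd6 were lower with both knockdowns (50% of 6 and 33.3% of 9), and Psme1 was higher with both.

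The size of the knockdown effect was tested between the sets in a fit over all 26 arrays. For Mettl14, Psme4 had a higher effect in the time course, by 0.23 ± 0.05 (limma, adjusted p = 0.00772), and Psmd5 a lower one, by -0.21 ± 0.06 (adjusted p = 0.0307). For Mettl3, Psme4 alone passed, at 0.27 ± 0.05 (adjusted p = 0.004), and no member passed in the other direction (6.15% of all genes were higher and 3.66% lower; 0 members had an unadjusted p under 0.05 in that direction). Among all genes 7.86% had a higher and 8.64% a lower Mettl14 effect in the time course. Without any 1 of scramble replicate 2 and knockdown replicate 2 of the time course, or of the repeat set's control replicate 1 and knockdown replicates 1 and 2, no member was lower; without replicate 2 of the Mettl3 knockdown, 1 member was lower for Mettl3.

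Psme4 shows the difference on single arrays. At 0 h of the time course its knockdown arrays were at 11.65 to 11.76 and its scramble arrays at 11.50 and 11.54. The repeat knockdown arrays were at 11.27 to 11.31 and the controls at 11.32 to 11.37.

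**Figure D2:**
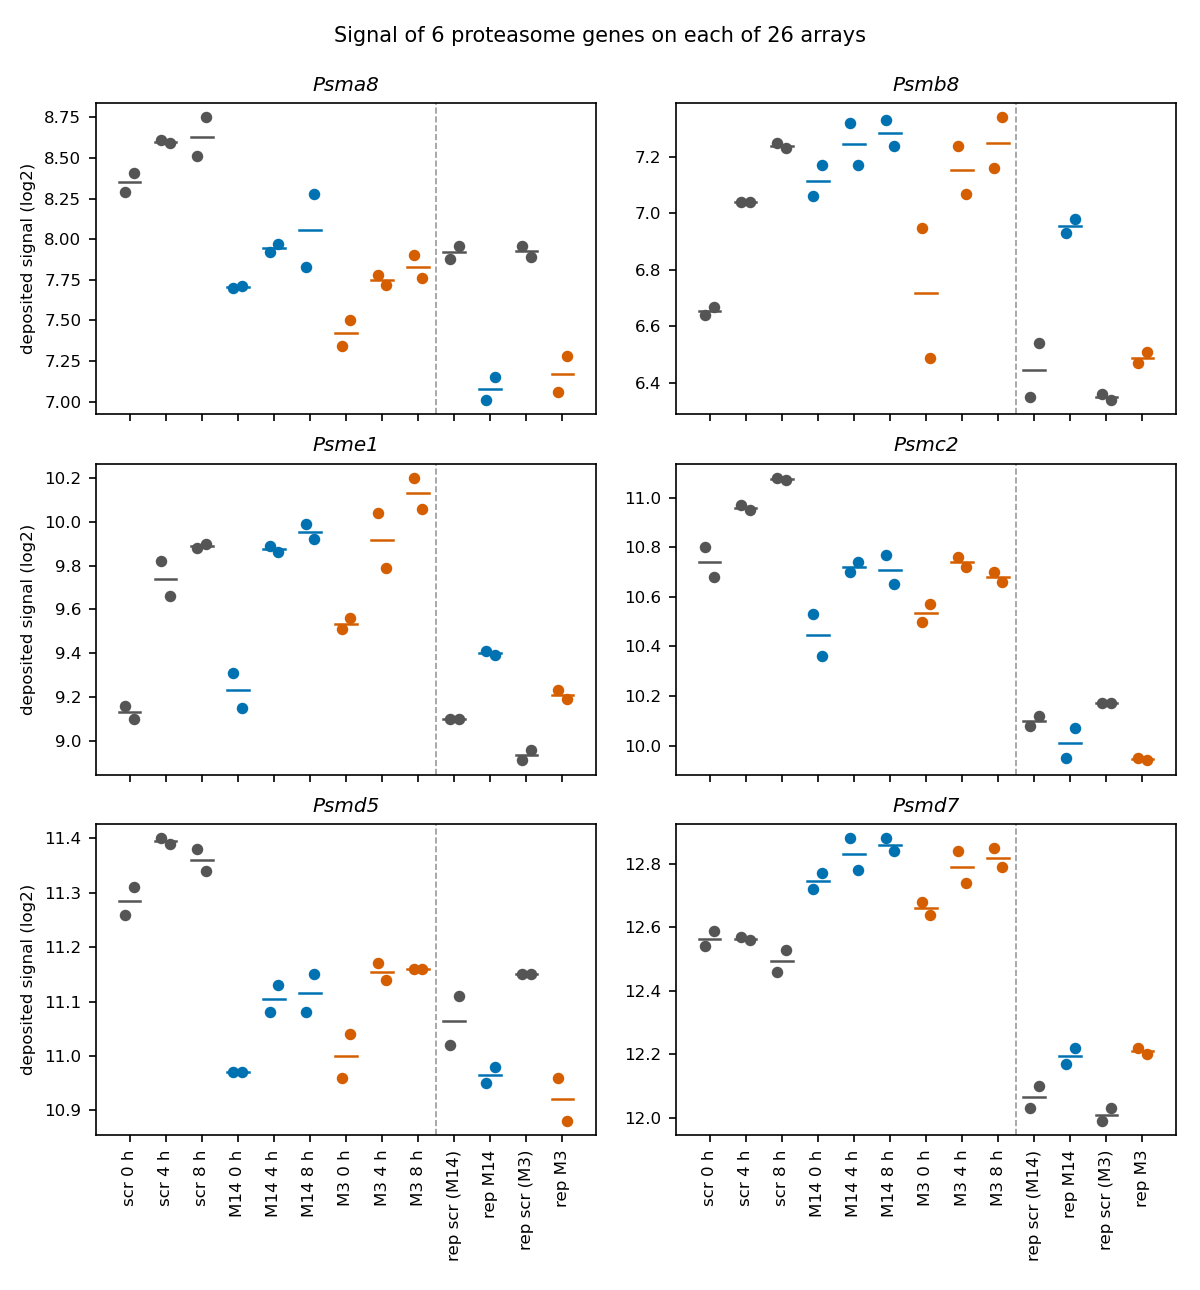
Deposited log2 signal of Psma8, Psmb8, Psme1, Psmc2, Psmd5 and Psmd7 on each of the 26 arrays; points are arrays, short lines are group means, the dashed line splits the time course from the repeat set, and grey, blue and orange are scramble, Mettl14 knockdown and Mettl3 knockdown. Psma8 was below its controls on all knockdown arrays at 0 h, while Psmb8 was above its controls on all 4 Mettl14 knockdown arrays at 0 h and not on 1 Mettl3 knockdown array, at 6.49.

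The knockdowns were also compared with each other. In the time course Psmb10 alone passed, higher with Mettl14 than with Mettl3 by 0.20 ± 0.05 (limma, adjusted p = 0.0457); 2.85% of all genes were higher and 3.22% lower. No member was lower by the test, and 4 were at an unadjusted p under 0.05. Psmb8 differed by 0.39 ± 0.12 (adjusted p = 0.0842) and Psme1 by -0.30 ± 0.09 (adjusted p = 0.0641). In the repeat set no member passed in either direction (1.54% of all genes were higher and 1.50% lower); 2 were higher at an unadjusted p under 0.05 and 0 lower. Psmb8 differed there by 0.37 ± 0.09 (adjusted p = 0.0941) and Psmb10 by 0.17 ± 0.09 (adjusted p = 0.379). The call of Psmb10 was lost without any 1 of the 4 knockdown arrays, with differences of 0.18 to 0.22. On the equal ribosomal median 6 members were higher with Mettl14 in the time course, as were 2449 of all 14787 genes.

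The genes of antigen processing and interferon signalling, to which the immunoproteasome belongs, were given from a list of 13 genes, of which 11 were measured. With Mettl14, 9 rose and 0 fell in each set (19.4% of all genes were higher in each), with medians of 0.76 in the time course and 0.70 in the repeat set. With Mettl3, 10 rose in the time course (median 0.59) and 7 in the repeat set (median 0.46), and 0 fell in either (19.3% and 17.9% of all genes were higher). The summed linear signal of 12 markers of feeder fibroblasts was 1063 to 1093 in scramble, 1195 to 1268 with Mettl14 and 1138 to 1190 with Mettl3 at 0 h of the time course. For the repeat arrays it was 1530 to 1540 and 1498 to 1568 for Mettl14, and 1306 to 1316 and 1472 to 1475 for Mettl3. Of the 12, Postn, Dcn and Lum were too dim to be tested. Of the other 9, 1 rose and 0 fell with Mettl14 in the time course, and 1 rose and 1 fell in the repeat set. With Mettl3, 1 rose and 1 fell in the time course, and 2 rose and 1 fell in the repeat set. Of all genes, 20.1% and 16.9% were lower with Mettl14 and 18.6% and 17.4% with Mettl3, in the same order of sets. The part of feeder cells in the immunoproteasome values was not tested, and fewer cells of a type and less RNA per cell cannot be told apart in bulk RNA. The 5 blood-cell markers, of which Ptprc, Adgre1 and Lyz2 were dim, summed to 757 to 786 in scramble and 699 to 703 with Mettl14 in the time course, and to 692 to 740 and 703 to 747 in the repeat set. For Mettl3 the knockdown arrays summed to 710 to 775 in the time course, which overlaps scramble, and to 595 to 612 in the repeat set, below the 675 to 712 of its control; the part of such cells in the members' values was not tested.

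Over time, members rose in each treatment on the deposited scale. At 4 h against 0 h, 34 members rose in scramble, 20 with the Mettl14 knockdown and 25 with the Mettl3 knockdown, where 32.7%, 33.0% and 31.5% of all genes were called higher. At 8 h, 36, 30 and 31 members rose, where 39.2%, 36.8% and 36.9% of all genes were called higher. No member fell at either time in any treatment by limma, and 0 had an unadjusted p under 0.05 in that direction, while 13.5%, 13.1% and 13.1% of all genes were called lower at 4 h and 21.6%, 19.4% and 19.2% at 8 h. The direction turned on the scale. With an equal ribosomal median 3, 32 and 23 members were lower at 4 h and 20, 28 and 26 at 8 h. That scale equalises the median level of the ribosomal genes, not their change. It moved all genes by -0.32, -0.48 and -0.42 at 4 h and by -0.56, -0.56 and -0.58 at 8 h. The ribosomal genes' own median changes as deposited were smaller, 0.17, 0.19 and 0.15 at 4 h and 0.24, 0.24 and 0.23 at 8 h. A fall on that scale is therefore not a fall against the ribosomal genes. Of all 14787 genes, 5126, 9906 and 8752 were lower on that scale at 4 h and 10420, 10616 and 11266 at 8 h.

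The shift of all genes therefore has to be read with these changes. On the deposited scale the median of all genes was 0.13, 0.12 and 0.10 at 4 h and 0.15, 0.12 and 0.11 at 8 h in scramble, Mettl14 and Mettl3 knockdown, and the member medians were 0.24, 0.17 and 0.17, and 0.36, 0.23 and 0.27. Relative to all genes the members were higher by 0.11, 0.06 and 0.07 at 4 h and by 0.21, 0.11 and 0.16 at 8 h. This was not particular to them. The 57 ribosomal protein genes had medians of 0.17, 0.19 and 0.15 at 4 h and 0.24, 0.24 and 0.23 at 8 h, also above all genes. Of these, 41, 38 and 37 were called higher at 8 h and 1, 3 and 3 lower. With an equal ribosomal median the member medians at 8 h were -0.21, -0.32 and -0.30 and those of all genes -0.41, -0.43 and -0.47. That scale moves all genes of an array by 1 amount. It therefore cannot change the gap between members and all genes, which was 0.20, 0.11 and 0.17. Quantile normalization applied again can change it, and gave gaps of 0.10, 0.03 and 0.06 at 4 h and 0.17, 0.06 and 0.10 at 8 h. At 8 h, 36, 31 and 35 of the 40 members lay above the median of all genes. The scale also set the split of all calls: 64.5%, 65.5% and 65.9% of the calls at 8 h were higher as deposited and 0.8%, 1.2% and 1.1% with an equal ribosomal median.

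For the other comparisons the split of all calls moved with that scale as well. At 4 h it went from 70.7%, 71.5% and 70.7% higher to 2.5%, 0.6% and 1.2%, and to 61.0%, 60.8% and 60.6% when quantile normalization was applied again. For the knockdowns at 0 h of the time course it went from 49.1% to 92.5% (Mettl14) and from 50.9% to 75.5% (Mettl3), and in the repeat set from 53.5% to 76.7% and from 50.7% to 73.2%. It went from 46.9% to 97.1% in the direct comparison of knockdowns in the time course, and from 47.6% to 92.3% (Mettl14) and 62.7% to 81.0% (Mettl3) in the differences between sets. Quantile normalization applied again moved it from 71.8% to 57.6% and from 71.0% to 59.9% in the 8 h differences of Mettl14 and Mettl3 knockdown from scramble. The median signal of all probe sets was 6.48 to 6.50 on the time course arrays at 0 h and 6.28 to 6.39 on those at 4 h and 8 h; its part in these changes was not tested.

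**Figure D3:**
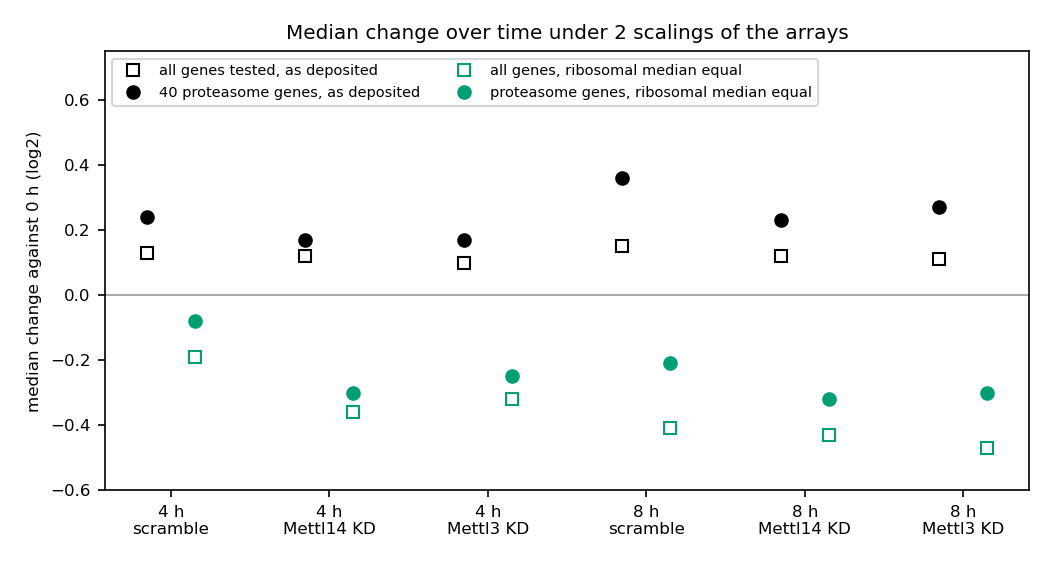
Median log2 change against 0 h of the 40 tested members (filled circles) and of all genes tested (open squares) at 4 h and 8 h in each treatment, on the deposited scale (black) and with an equal median of ribosomal protein genes in every array (green). The members sit above all genes at every position, by 0.06 to 0.21, while the sign of both medians turns from above 0 to below 0 with the scale. The ribosomal scale equalises the level of these genes and moved all genes by more than their own median change.

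Within the core, Psma7, an alpha-ring gene, had 10.80 and 10.71 in scramble at 0 h and 11.22 and 11.31 at 8 h, a change of 0.51 ± 0.08 (limma, adjusted p = 0.000169; values over time are on the deposited scale here and below). It changed by 0.58 ± 0.08 and 0.63 ± 0.08 at 8 h with Mettl14 and Mettl3 knockdown (adjusted p = 6.74e-05 and 3.56e-05). Psmb3 had 8.40 and 8.31 at 0 h and 9.0 and 8.84 at 8 h in scramble, a change of 0.57 ± 0.07 (adjusted p = 4.28e-05). Its 8 h changes were 0.69 ± 0.07 with Mettl14 and 0.43 ± 0.07 with Mettl3 (adjusted p = 9.64e-06 and 0.000369). For both genes all arrays at 8 h were above all arrays at 0 h of the same treatment. With an equal ribosomal median Psma7 stood at -0.05 in scramble and Psmb3 at -0.15 with Mettl3 at 8 h.

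The standard catalytic genes rose at 8 h in every treatment on this scale. Psmb5 had 12.87 and 12.86 at 0 h and 13.06 and 13.03 at 8 h in scramble and changed by 0.18 ± 0.05, with 0.22 and 0.18 in the Mettl14 and Mettl3 knockdowns (limma, adjusted p = 0.00559, 0.00165 and 0.0046). Psmb6 changed by 0.38, 0.29 and 0.29 (adjusted p = 0.000356, 0.0024 and 0.00263) and Psmb7 by 0.38, 0.44 and 0.38 (adjusted p = 0.000262, 8.71e-05 and 0.000284). With an equal ribosomal median Psmb5, Psmb6 and Psmb7 were below 0 in all 3 treatments at 8 h, at -0.39 to -0.12.

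The immunoproteasome genes also rose in scramble at 8 h on this scale. Psmb10 had 9.47 and 9.39 in scramble at 0 h and 10.13 and 10.10 at 8 h, a change of 0.69 ± 0.05 (limma, adjusted p = 5.3e-07), with 0.65 and 0.73 in the Mettl14 and Mettl3 knockdowns (adjusted p = 1.07e-06 and 4.19e-07). It stayed above 0 with an equal ribosomal median at 8 h, at 0.12, 0.09 and 0.15, without passing the test. Psmb8 had 6.64 and 6.67 at 0 h and 7.25 and 7.23 at 8 h in scramble, a change of 0.58 ± 0.12 (adjusted p = 0.00128). With the Mettl14 knockdown, where it was already at 7.06 and 7.17 at 0 h, it had 7.33 and 7.24 at 8 h, a change of 0.17 ± 0.12 (adjusted p = 0.247). With Mettl3 it changed by 0.53 ± 0.12 (adjusted p = 0.00244). Psmb9 changed by 0.40, 0.29 and 0.38 (adjusted p = 0.0012, 0.00907 and 0.00157).

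In the regulatory particle, the ATPase Psmc5 had 9.95 and 9.89 at 0 h and 10.43 and 10.53 at 8 h in scramble, a change of 0.56 ± 0.08 (limma, adjusted p = 5.14e-05), with 0.33 and 0.40 in the Mettl14 and Mettl3 knockdowns (adjusted p = 0.00253 and 0.000628). Psmd10, an assembly chaperone of the base also known as gankyrin, had 9.79 and 9.75 at 0 h and 10.34 and 10.47 at 8 h, a change of 0.63 ± 0.06 (adjusted p = 4.31e-06), with 0.53 and 0.58 in the knockdowns (adjusted p = 1.88e-05 and 1.03e-05). Psmd4 changed by 0.38, 0.29 and 0.29 (adjusted p = 7.95e-05, 0.000639 and 0.000656).

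Psmd14 was the member that passed at 8 h in no treatment. It had 11.12 and 11.17 at 0 h and 11.17 and 11.23 at 8 h in scramble, with groups that met at 11.17, and its 8 h changes were 0.06 ± 0.06, -0.09 ± 0.06 and 0.01 ± 0.06 (limma, adjusted p = 0.368, 0.184 and 0.947). At 4 h, Psmb2, Psmd7 and Psmd14 passed in no treatment.

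Psmd6 and Psma6 are given here because their values differed between treatments, and were chosen after those values were seen. Psmd6 had 11.01 and 10.93 at 0 h and 11.34 and 11.37 at 8 h in scramble, a change of 0.38 ± 0.07 (limma, adjusted p = 0.000404). It had 10.82 and 10.73 at 0 h and 10.77 and 10.87 at 8 h with Mettl14, with overlapping arrays and a change of 0.05 ± 0.07 (adjusted p = 0.553), and changed by 0.05 ± 0.07 with Mettl3 (adjusted p = 0.599). Psma6, an alpha-ring gene, changed by 0.31, 0.05 and 0.08 (adjusted p = 0.00129, 0.559 and 0.292). Psmd7 changed by -0.07 in scramble, 0.11 with Mettl14 and 0.16 with Mettl3 (adjusted p = 0.316, 0.103 and 0.0263). The tests of these differences follow below.

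Among the activators, Psme1 had 9.16 and 9.10 at 0 h and 9.88 and 9.90 at 8 h in scramble, a change of 0.76 ± 0.09 (limma, adjusted p = 1.45e-05), with 0.72 and 0.60 in the Mettl14 and Mettl3 knockdowns (adjusted p = 2.16e-05 and 9.97e-05). All later arrays were above all arrays at 0 h. Psme2 had 8.20 and 8.10 at 0 h and 8.70 and 8.96 at 8 h in scramble, a change of 0.68 ± 0.15 (adjusted p = 0.00226). With Mettl14 it had 8.35 and 8.69 at 0 h and 8.55 and 8.46 at 8 h, which overlap, a change of -0.02 ± 0.15 (adjusted p = 0.937), and with Mettl3 it changed by 0.26 ± 0.15 (adjusted p = 0.168). Psme3 changed by 0.39, 0.15 and 0.22 (adjusted p = 0.000115, 0.0473 and 0.00664) and Psme4 by 0.17, 0.05 and 0.13 (adjusted p = 0.00578, 0.354 and 0.0242).

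**Figure D4:**
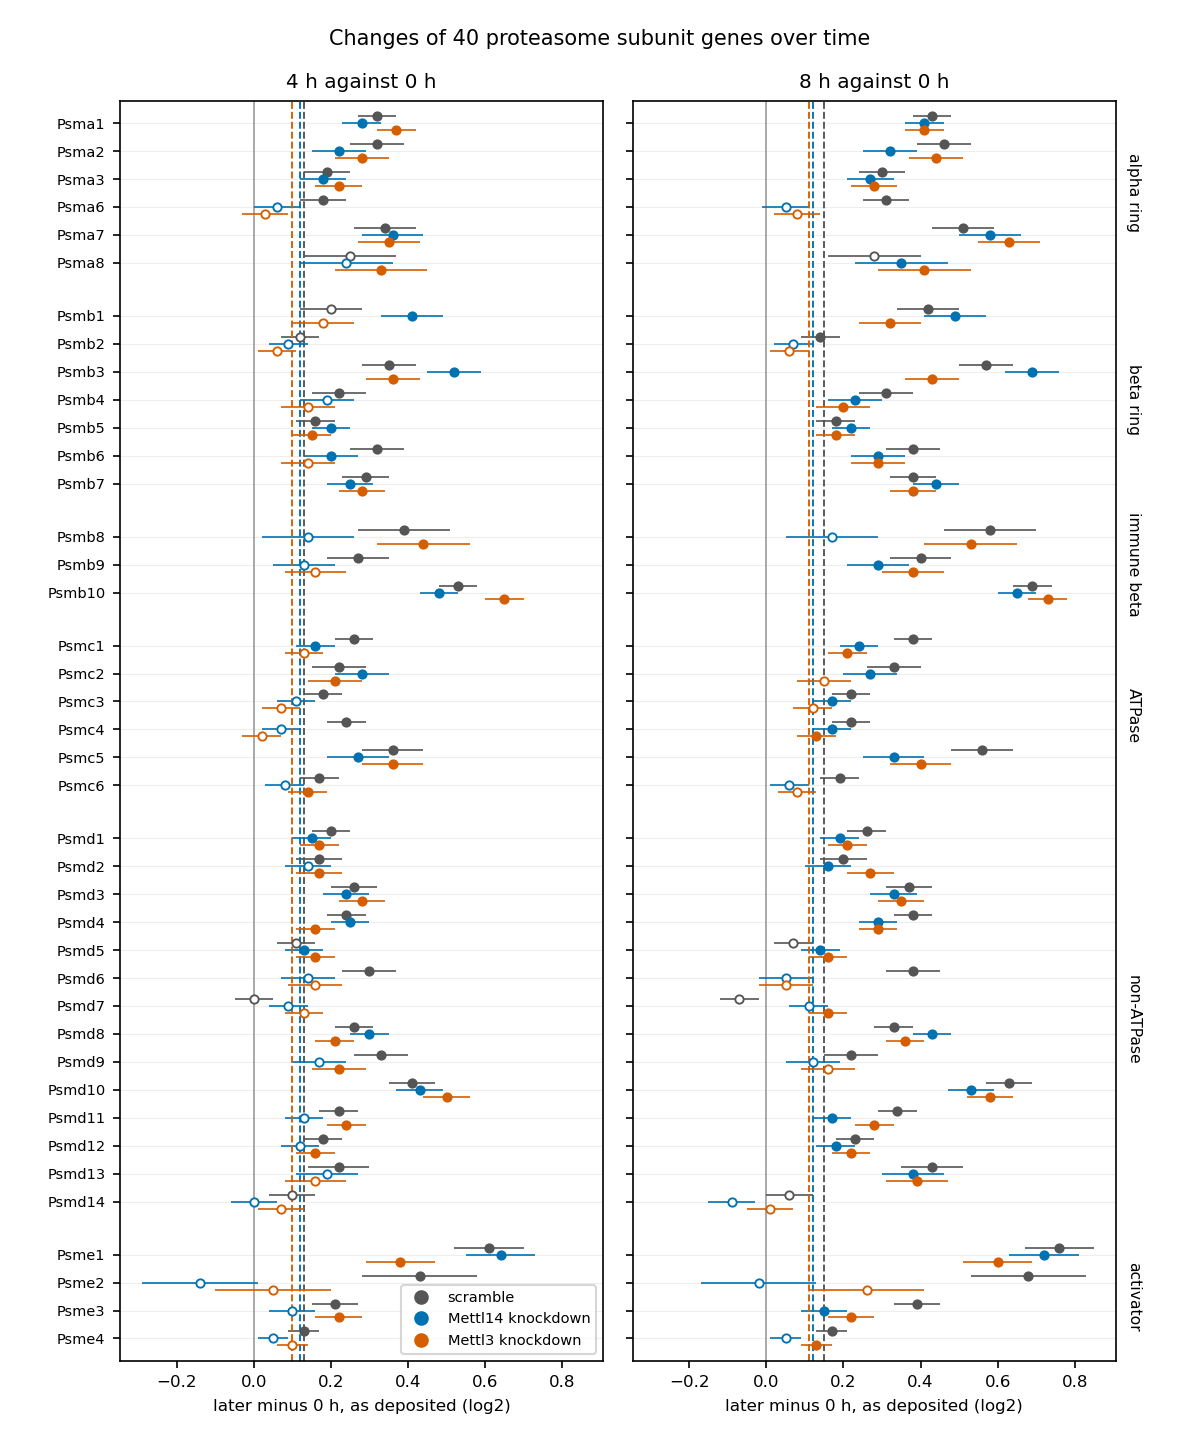
Log2 change of each of the 40 tested members (rows, by sub-complex) at 4 h and 8 h against 0 h on the deposited scale; points are limma estimates from 2 arrays a group, bars are standard errors, filled points passed adjusted p 0.05, and grey, blue and orange are scramble, Mettl14 knockdown and Mettl3 knockdown. Dashed lines mark the median of all genes tested (0.10 to 0.15); most points lie to the right of them, and with an equal ribosomal median the member medians lie below 0 at both times.

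At 4 h in scramble, Psme1 changed by 0.61 ± 0.09, Psmb10 by 0.53 ± 0.05 and Psmd10 by 0.41 ± 0.06 (limma, adjusted p = 0.000217, 1.58e-05 and 0.000322). With Mettl14 the largest called change in the beta ring was that of Psmb3, 0.52 ± 0.07 (adjusted p = 0.000201), and with Mettl3 the largest in the immunoproteasome group was that of Psmb10, 0.65 ± 0.05 (adjusted p = 3.23e-06). Psmb8 changed at 4 h by 0.39 in scramble, 0.14 with Mettl14 and 0.44 with Mettl3 (adjusted p = 0.0203, 0.388 and 0.0116). The 4 h and 8 h changes share the arrays at 0 h. Counts at 4 h moved with single arrays: the 34 in scramble were 20 to 22 without any 1 of its 4 arrays (20 without replicate 1 at 4 h), the 20 with Mettl14 were 13 without replicate 1 at 0 h, and the 25 with Mettl3 were 15 without replicate 1 at 0 h and 11 without replicate 1 at 4 h. With quantile normalization applied again, 18, 11 and 12 members rose at 4 h, where 3631, 3689 and 3595 of all 14787 genes were called higher.

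The 3 treatments have their own arrays at 0 h, so their calls can be compared. The overlap was not counted over all genes, so whether its size is particular to the members cannot be told. At 8 h, 28 members were called higher in both scramble and Mettl14 knockdown (77.8% of 36 and 93.3% of 30), 28 in both scramble and Mettl3 knockdown (77.8% of 36 and 90.3% of 31), and 26 in all 3. At 4 h, 18 were higher in both scramble and Mettl14 knockdown (52.9% of 34 and 90% of 20), 23 in both scramble and Mettl3 knockdown (67.6% of 34 and 92% of 25), and 16 in all 3. With an equal ribosomal median, 0 members were higher at 8 h and at most 1 at 4 h in each treatment. Of all 14787 genes, 132, 60 and 109 were higher on that scale at 4 h and 89, 132 and 130 at 8 h.

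Whether the members moved differently over 8 h in knockdown and scramble cells was tested directly. No member passed for either knockdown, where 3.58% of all genes had a higher and 1.41% a lower change with Mettl14, and 2.46% and 1.01% with Mettl3. At an unadjusted p under 0.05, 6 members were lower and 1 higher with Mettl14, and 3 lower and 1 higher with Mettl3. The member medians were -0.06 and -0.05, against 0.01 for all genes, and 31 and 33 of the 40 members were below the median of all genes. Both tests subtract the change of the same scramble arrays. Like values for the 2 knockdowns, here and for the genes below, are therefore not independent.

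The largest of these differences were in Psme2, at -0.69 ± 0.22 with Mettl14 (limma, adjusted p = 0.0946) and -0.42 ± 0.22 with Mettl3 (adjusted p = 0.325). Psmd6 differed by -0.33 ± 0.10 and -0.34 ± 0.10 (adjusted p = 0.0725 and 0.0791) and Psma6 by -0.26 ± 0.09 and -0.22 ± 0.09 (adjusted p = 0.135 and 0.205). Psmb8 differed by -0.41 ± 0.17 with Mettl14 (adjusted p = 0.215) and Psme3 by -0.24 ± 0.08 (adjusted p = 0.128). Psmd7 differed by 0.18 ± 0.08 and 0.22 ± 0.08 (adjusted p = 0.24 and 0.144). In a limma fit with trend and robust, 4 members were lower with Mettl14, and with Mettl3 1 was lower and 1 higher. The share of all genes called in that fit is not given here, so whether this is particular to the members cannot be told.

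The summed signals of the fibroblast and blood-cell markers also moved with time in scramble. The summed signal of the 12 fibroblast markers was 1063 to 1093 at 0 h and 1316 to 1467 at 8 h in scramble, and that of the 5 blood-cell markers 757 to 786 and 983 to 1017. Of the tested ones, 4 of 9 fibroblast and 1 of 2 blood-cell markers rose and 0 fell, where 39.2% of all genes were called higher and 21.6% lower. The sum of the 10 embryonic stem cell markers went the other way, from 35494 to 35541 at 0 h to 28023 to 29021 at 8 h. Of the 9 tested, 5 fell and 1 rose. The part of other cells in the members' changes was not tested.

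The genes that build, bind or regulate the proteasome were taken from a list of 33, of which 24 were measured. With the Mettl14 knockdown at 0 h 7 fell and 3 rose in the time course, and 3 fell and 5 rose in the repeat set; with Mettl3 6 fell and 6 rose, and 4 fell and 5 rose. Of all genes, 20.1% were lower and 19.4% higher with Mettl14 in the time course and 16.9% and 19.4% in the repeat set, and with Mettl3 18.6% and 19.3%, and 17.4% and 17.9%. Psmg1, an assembly chaperone of the alpha ring, fell in all 4 comparisons, with log2 changes of -0.68, -0.54, -0.45 and -0.34 (Mettl14 and Mettl3 in the time course, then in the repeat set; limma, adjusted p = 0.000173, 0.00104, 0.00066 and 0.00242). On the arrays at 0 h of the time course it had 10.59 and 10.51 in scramble, 9.86 and 9.88 with Mettl14 and 9.85 and 10.17 with Mettl3, all below the controls.

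Ecpas, a scaffold protein that binds the proteasome, rose in all 4 comparisons, by 0.65, 0.43, 0.80 and 0.79 in the same order (limma, adjusted p = 1.36e-06, 4.49e-05, 6.5e-05 and 7.88e-05). On the repeat arrays it had 8.97 and 8.95 in the control for Mettl14 and 9.75 and 9.76 in the knockdown, with no overlap. The shuttle factor gene Ubqln2 rose by 0.47 with Mettl3 in the time course and by 0.38 and 0.42 with Mettl14 and Mettl3 in the repeat set (adjusted p = 0.000239, 0.000858 and 0.000692). Psmg2, the partner of Psmg1, fell by 0.41 ± 0.06 with Mettl14 and 0.36 ± 0.06 with Mettl3 in the time course (adjusted p = 0.000276 and 0.00082). It also fell with Mettl3 in the repeat set, with changes of -0.25 to -0.24 when each array was left out in turn. Its Mettl14 effect was lower in the time course than in the repeat set, by -0.34 to -0.28 with each array left out in turn. For Mettl14, Psmg2, Psmg4 and Usp14 had a lower effect in the time course and Ube3c a higher one (8.64% and 7.86% of all genes). For Mettl3, Ecpas and Usp14 had a lower effect and 0 listed genes a higher one (3.66% and 6.15%).

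Over time the genes of this list went both ways on the deposited scale, and 3 regulators had its largest falls. At 8 h, 16 of the 24 listed genes rose and 4 fell in scramble, 12 and 5 with Mettl14, and 13 and 3 with Mettl3, where 39.2%, 36.8% and 36.9% of all genes were higher and 21.6%, 19.4% and 19.2% lower. Zfand5, a protein that activates the proteasome, had 10.78 and 10.81 at 0 h and 8.49 and 8.20 at 8 h in scramble, a change of -2.45 ± 0.15 (limma, adjusted p = 6.38e-08), with -2.17 and -2.18 in the Mettl14 and Mettl3 knockdowns. Akirin2, which carries proteasomes into the nucleus, had 11.43 and 11.33 against 9.66 and 9.54, a change of -1.78 ± 0.07 (adjusted p = 3e-09), with -1.79 and -1.84 in the knockdowns. Nfe2l2, the transcription factor that binds antioxidant response elements, had 10.99 and 11.05 against 9.74 and 9.76, a change of -1.27 ± 0.07 (adjusted p = 1.75e-08), with -1.20 and -1.17. Sem1, a small subunit of the lid with another kind of symbol, rose at 8 h by 0.76 ± 0.07 with Mettl14 and by 0.67 ± 0.07 with Mettl3 (adjusted p = 3.44e-06 and 9.02e-06). The rise of Sem1 did not differ by the test from its change in scramble with either knockdown. With Mettl14 no listed gene exceeded its scramble change by more than 0.28. For each of Zfand5, Akirin2 and Nfe2l2 every array at 8 h in scramble was below every array at 0 h. Of the 24, Zfand2a alone had a different 8 h change in Mettl3 knockdown than in scramble. Its change was higher (2.46% of all genes), by 0.50 to 0.75 with each array left out in turn. With Mettl14 0 of the 24 passed.

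**Figure D5:**
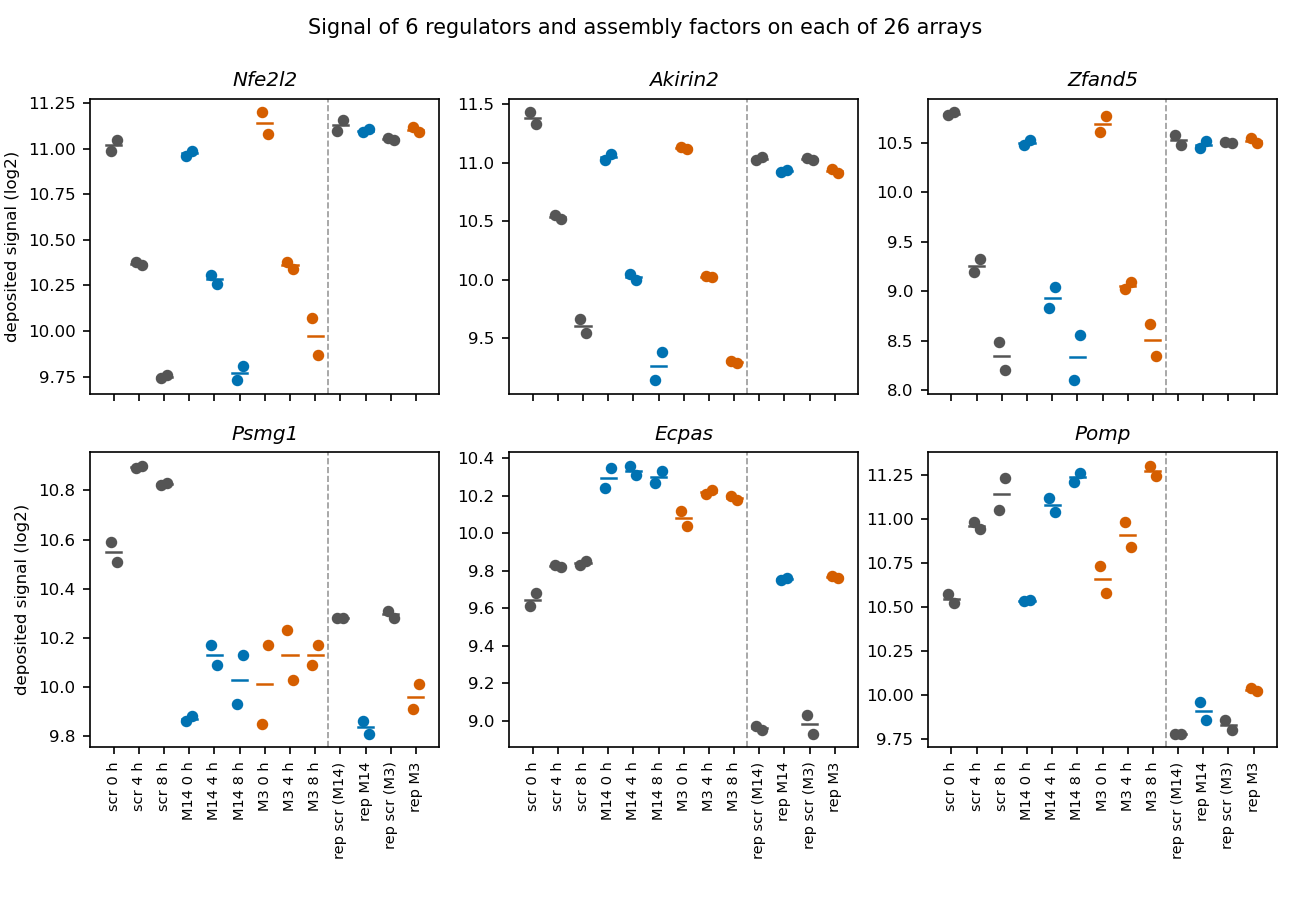
Deposited log2 signal of Nfe2l2, Akirin2, Zfand5, Psmg1, Ecpas and Pomp on each of the 26 arrays; points are arrays, short lines are group means, the dashed line splits the time course from the repeat set, and grey, blue and orange are scramble, Mettl14 knockdown and Mettl3 knockdown. Nfe2l2, Akirin2 and Zfand5 step down from 0 h to 8 h in each treatment, and Ecpas is above its controls on all knockdown arrays at 0 h.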

How the data were processed

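Per the labels' protocols, Trizol extracts were the source of poly(A) RNA, which carried a biotin label on the array. The authors deposited 1 log2 intensity for each probe set and array; the submitters' processing notes name RMA and oligo with no version, and whether the 26 arrays were processed together is not stated. RMA corrects background, makes the arrays' probe distributions equal and summarises each probe set, so a shift of most transcripts in 1 direction is not kept in full. GEO's platform annotation pairs 23521 of 41345 probe sets with 1 symbol and 1814 with several, and does not list 16010.

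The probe sets with 1 symbol gave 22180 genes; for the 1082 genes with more than 1 of them, including 2 members, the one with the highest mean over all arrays was used. The 7393 genes with the lowest means (a fraction of 0.333) were left out, which kept 14787, of mean 6 or more. Each comparison was a two-sided contrast in limma 3.58.1 under R 4.3.3 (lmFit, eBayes, Benjamini-Hochberg over all genes tested, threshold 0.05), with 9 residual degrees of freedom in the time course, 4 in the repeat set and 13 over all 26 arrays. The code was tested on simulated data. Tables and figures used Python 3.11.15, pandas 2.3.3, numpy 2.4.6 and matplotlib 3.10.9.

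The titles call the replicates biological, and nothing says whether they came from separate cultures, so p-values reflect only how these samples spread, which may be technical. The members and gene lists (sub-complexes, proteasome pathway, antigen processing, and markers of embryonic stem cells, feeder fibroblasts and blood cells) were chosen with earlier results of these data known. The rule for named genes takes, per comparison and sub-complex, the member with the largest rise and the one with the largest fall that passed; Psmb5 to Psmb10, Psme1 to Psme4, Psmd4 and Psmd14 throughout; up to 4 pathway genes with the smallest adjusted p; and both dim members. A member named in 1 knockdown comparison may be given in the others. Alternatives covered the filter, the probe set rule, quantile normalization applied again, array weights, a trended and robust eBayes, replicate blocks, an equal median of ribosomal protein genes, a fit over all 26 arrays, and leaving out each array. The direct comparisons of the knockdowns, 1 in each set, were added to 14 planned comparisons after the data were seen.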

Additional observations from a re-analysis of the deposited data

Results flagged for a closer look

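The difference between the Mettl14 and Mettl3 knockdowns at 0 h of the time course passed the test for Psmb10, at 0.20 on the log2 scale, with both Mettl14 knockdown arrays above both Mettl3 knockdown arrays. The Mettl14 knockdown effect on Psmd5 differed by -0.21 between the time course and the repeat set, on the log2 scale. The effect on Psme4 was higher in the time course than in the repeat set by 0.23 for Mettl14 and by 0.27 for Mettl3. The sets differ in more than their controls, and set and group cannot be told apart in the levels themselves.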

How the results depend on the processing

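Counts are of members called higher or lower. On the equal ribosomal median, the scale that changed most, the Mettl14 knockdown at 0 h of the time course had 19 higher and 1 lower, and the Mettl3 knockdown 1 lower. At 4 h scramble had 1 higher and 3 lower, Mettl14 knockdown 0 higher and 32 lower, and Mettl3 knockdown 1 higher and 23 lower. At 8 h they had 0 higher each, and 20, 28 and 26 lower. Of all 14787 genes, 5126, 9906 and 8752 were lower on this scale at 4 h and 10420, 10616 and 11266 at 8 h. With the Mettl14 knockdown at 0 h of the time course, 8025 of all genes were higher and 646 lower. In the repeat set 1 member was lower with Mettl14, and 1 higher and 1 lower with Mettl3; the difference between knockdowns in the time course had 6 higher. In the difference between sets, 0 were lower for Mettl14 and 0 higher for Mettl3. The cause of these shifts was not tested. For the knockdowns at 0 h and the changes over time, this scale moved all genes by more than the ribosomal genes' own median change. It equalises their median level, so values on it are not changes against the ribosomal genes. The following changes, called on at least 1 of the 2 scales, differ in sign between them. With the Mettl14 knockdown at 0 h of the time course, these were Psmb3 at 0.01, Psmb4 at 0.09, Psmb7 at 0.23, Psmc2 at 0.00, Psmc5 at 0.07 and Psmd6 at 0.10. At 4 h in scramble, they were Psmb5 at -0.16, Psmb6 at -0.00, Psmb7 at -0.03, Psmb9 at -0.05, Psmd14 at -0.22, Psmd4 at -0.08, Psme3 at -0.11 and Psme4 at -0.19. At 4 h with Mettl14, they were Psma7 at -0.12, Psmb5 at -0.28, Psmb6 at -0.27, Psmb7 at -0.23, Psmb8 at -0.34, Psmb9 at -0.35, Psmc2 at -0.20, Psmd10 at -0.05, Psmd14 at -0.47, Psmd4 at -0.23, Psme3 at -0.37 and Psme4 at -0.43. At 4 h with Mettl3, they were Psma1 at -0.04, Psmb3 at -0.06, Psmb5 at -0.27, Psmb6 at -0.28, Psmb7 at -0.14, Psmb9 at -0.26, Psmc5 at -0.06, Psmd14 at -0.34, Psmd4 at -0.26, Psme1 at -0.04, Psme3 at -0.20, Psme4 at -0.31 and Psmf1 at -0.09. At 8 h in scramble, they were Psma6 at -0.26, Psma7 at -0.05, Psma8 at -0.28, Psmb5 at -0.38, Psmb6 at -0.18, Psmb7 at -0.18, Psmb9 at -0.17, Psmc5 at -0.00, Psmd14 at -0.50, Psmd4 at -0.18, Psmd6 at -0.18, Psme3 at -0.17 and Psme4 at -0.39. At 8 h with Mettl14, they were Psma6 at -0.51, Psma8 at -0.21, Psmb5 at -0.34, Psmb6 at -0.26, Psmb7 at -0.12, Psmb8 at -0.38, Psmb9 at -0.27, Psmc5 at -0.23, Psmd10 at -0.03, Psmd4 at -0.27, Psmd6 at -0.51, Psmd7 at -0.45, Psme3 at -0.41 and Psme4 at -0.51. At 8 h with Mettl3, they were Psma6 at -0.49, Psma8 at -0.17, Psmb3 at -0.15, Psmb5 at -0.39, Psmb6 at -0.29, Psmb7 at -0.20, Psmb8 at -0.04, Psmb9 at -0.19, Psmc5 at -0.17, Psmd14 at -0.57, Psmd4 at -0.29, Psmd6 at -0.53, Psmd7 at -0.42, Psme3 at -0.36 and Psme4 at -0.45.

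With quantile normalization applied again, 18, 11 and 12 members were higher at 4 h, as were 3631, 3689 and 3595 of all 14787 genes. There 1 member was lower at 8 h in scramble and 1 with Mettl14 (3310 and 3179 of all genes). In the direct comparison of knockdowns in the time course 1 was lower (533 of all genes). With no filter on dim genes, 7 were lower with Mettl14 in the time course, 1 was lower with Mettl14 at 4 h and 1 at 8 h, 0 were higher in the direct comparison, and 0 were lower in the Mettl14 difference between sets. With a filter stricter than the main one, 1 was lower in each of the 8 h differences from scramble, 1 was lower in the direct comparison of the time course and 1 higher in that of the repeat set, 5 were higher with Mettl14 in the repeat set, and 2 were lower in the Mettl14 difference between sets. Averaging all probe sets of a gene gave 2 there. For both filters and the averaging, the shares of all genes called are not given here, so whether these counts are particular to the members cannot be told.

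With trend and robust, the 8 h difference from scramble had 4 lower for Mettl14, and 1 higher and 1 lower for Mettl3. The same fit gave 3 lower in the direct comparison of the time course and 1 higher in that of the repeat set, 5 higher and 13 lower with Mettl14 and 14 lower with Mettl3 in the repeat set, and 4 lower in the Mettl14 difference between sets. A fit over all 26 arrays gave 2 and 1 lower in the 8 h differences, 2 higher and 2 lower in the direct comparison, and 4 higher with Mettl14 in the repeat set. Array weights gave 0 higher in the direct comparison. Replicates of the same number did not deviate together in the repeat set (r = -0.05 to 0.04 over 6 pairs of groups). In the time course r was -0.44 to 0.34 over 36 pairs, with a median of 0.03 and 12 pairs above 0.1. No pairing by number held across all groups there, but one among some groups is not excluded. With a replicate block the direct comparison had 0 higher and 1 lower, and 30 of the 32 counts stayed within 1.5 times. The shares of all genes called in the fits of this paragraph are not given here. Whether these counts are particular to the members therefore cannot be told.

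With each array left out in turn, the lone array of a group was assumed to vary like the other groups. Members lower with Mettl14 in the time course ranged from 5 to 8 and higher ones from 1 to 4; with Mettl3, 2 to 7 were lower. At 4 h, 20 to 22 were higher in scramble, 13 to 18 with Mettl14 and 11 to 21 with Mettl3; at 8 h, 33 to 36, 20 to 26 and 25 to 29. In the repeat set 2 to 5 were lower with Mettl14, and 4 to 5 lower and 1 to 2 higher with Mettl3. The direct comparison had 0 to 1 higher, and the differences between sets 0 to 1 lower for Mettl14 and 0 to 1 lower for Mettl3. Of 325 values of named genes, 44 lost their call without some array, 5 gained one, and 0 called values changed direction. Psma8, Psmd5 and Psme4 with Mettl3 in the time course, and Psma8, Psmb8 and Psme1 with Mettl14 in the repeat set, kept their calls without any single array; Psmb8 and Psmb10 with Mettl14 in the time course lost theirs without 2 of the 4. Groups of 2 arrays and signals near the dim limit, such as those of Psmb8 and Psmb9, bound what could be detected.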
